A study of Mus musculus with 12 samples.

Results

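The proteasome genes were the genes of the count table whose mouse symbol starts with Psma, Psmb, Psmc or Psmd followed by a digit, together with Psme1, Psme2, Psme3 and Psme4. The rule found 43 of 24187 genes. They comprised 8 alpha subunits and 7 constitutive beta subunits of the 20S core, the 3 inducible beta subunits of the immunoproteasome (Psmb8, Psmb9 and Psmb10), 6 ATPases and 11 non-ATPase subunits of the 19S regulatory particle, 3 assembly chaperones of the 19S base (Psmd5, Psmd9 and Psmd10), 4 activators and Psmc3ip. Psmc3ip carries a matching symbol but encodes a cofactor of meiotic recombination, so it is given apart from the subunits. All 43 passed the filter on low counts. Psmb11, the catalytic subunit of the thymus, also fits the rule but was not among the 43 genes found.

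The samples were livers of 12 C57BL/6J mice, which the study's methods give as 10 to 12 weeks old and for which the labels name neither the sex nor an engineered allele. The methods for the APAP injury name the substrain C57BL6/JOlaHsd instead, and mice of both sexes. Ddx3y, on the Y chromosome, had 3064 to 4281 counts in the 12 livers, and Xist, which is expressed from the inactive X chromosome, had 10 to 149. The 3 control mice had neither injury nor treatment. According to the labels, the other mice had received 350 mg/kg of paracetamol (acetaminophen, APAP), a drug whose reactive metabolite kills hepatocytes around the central vein, and then either phosphate-buffered saline as vehicle (5 mice) or human alternatively activated macrophages (hAAMs, 4 mice). According to the methods, the injection was given into the tail vein 16 h after APAP and the livers were taken at 36 h. A legend gives 32 h, for mice on a higher dose of APAP than the labels state. The labels call the controls untreated, and whether these mice were fasted or injected is not given in the sources used here, so the effects of the drug, of fasting and of the injection cannot be told apart in a comparison with control.

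The proteasome degrades proteins tagged with ubiquitin. Its 20S core is a barrel of alpha rings, which form the gate, and beta rings, of which Psmb5, Psmb6 and Psmb7 carry the proteolytic activity. The 19S particle caps the core, recognises and unfolds the substrate, and removes its ubiquitin. In cells stimulated by interferon gamma, Psmb8, Psmb9 and Psmb10 take the places of Psmb5, Psmb6 and Psmb7, and the activator Psme1 with Psme2 can replace the 19S cap, which changes the peptides offered to T cells. When the proteasome is inhibited, the transcription factor NRF1 (Nfe2l1) raises the genes of most subunits together through antioxidant response elements in their promoters.

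The deposited table held raw counts, with 47391650 to 74056505 counts per liver, of which the proteasome genes took 0.172% to 0.239%. The lowest were Psma8 with 20 to 84 counts and Psmc3ip with 25 to 68. Levels are given as CPM, the counts of a gene divided by its library size after TMM scaling, in the order of replicate numbers within a group. A log2 fold change is followed by ± its standard error, and a gene is called changed at a Benjamini-Hochberg false discovery rate (FDR) under 0.05 over 22581 genes in edgeR's quasi-likelihood test. Nothing in the labels ties a sample to a separate animal beyond its replicate number. The counts of hAAM 4 and vehicle 3 were nearly identical: their spread was 1.42 times counting noise over all genes and 1.58 times over the proteasome genes. The other 35 pairs of APAP-injured livers ranged from 5.61 to 24.7 over all genes and from 2.501 to 65.6 over the proteasome genes. Counts of called genes are therefore given with and without both, and beside each called gene described in detail stands its value without them or the loss of its call. The liver markers Alb, Apoa1, Ttr, Apob, Cps1 and Serpina1a summed to 74510 to 114570 CPM, and none was called in either comparison with control. Of 8 macrophage and monocyte markers, 4 rose in both comparisons, and their sum went from 173 to 187 CPM in control to 231 to 411 with vehicle and 230.1 to 451 with hAAMs. In whole liver, fewer cells of a type and less RNA per cell cannot be told apart.

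Promoters of 5 proteasome genes are shown because the results turn on them: Psmd8, the subunit gene that rose, Psmd11 and Psme4, which fell in both comparisons, and the constitutive and inducible partners Psmb5 and Psmb8. Each window is from RefSeq (GRCm38.p6) and runs from 250 bases before to 50 bases after the annotated start, 5′ to 3′ on the gene's strand. Capitals mark 1 match to a searched motif on either strand: GGGCGG (GC box) in Psmd8, CCGGAAG (ETS site) in Psmd11, TGACNNNGC (antioxidant response element core) in Psme4 and Psmb5, and TTCNNNGAA (gamma activated site) in Psmb8. None of the marked matches overlapped a match to another of the 6 motifs searched.
Psmd8, chr7:29180624-29180923, minus strand: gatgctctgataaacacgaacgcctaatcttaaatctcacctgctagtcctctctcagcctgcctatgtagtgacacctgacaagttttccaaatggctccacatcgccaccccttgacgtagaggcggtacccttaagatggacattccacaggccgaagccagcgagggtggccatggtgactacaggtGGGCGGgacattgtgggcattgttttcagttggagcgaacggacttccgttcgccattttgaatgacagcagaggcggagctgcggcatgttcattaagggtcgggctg
Psmd11, chr11:80428365-80428664, plus strand: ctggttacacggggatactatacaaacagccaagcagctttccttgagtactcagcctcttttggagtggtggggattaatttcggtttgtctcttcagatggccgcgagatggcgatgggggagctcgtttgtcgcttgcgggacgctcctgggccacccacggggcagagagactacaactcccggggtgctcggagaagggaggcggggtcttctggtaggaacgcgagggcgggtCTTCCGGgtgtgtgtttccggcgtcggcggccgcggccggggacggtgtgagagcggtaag
Psme4, chr11:30771525-30771824, plus strand: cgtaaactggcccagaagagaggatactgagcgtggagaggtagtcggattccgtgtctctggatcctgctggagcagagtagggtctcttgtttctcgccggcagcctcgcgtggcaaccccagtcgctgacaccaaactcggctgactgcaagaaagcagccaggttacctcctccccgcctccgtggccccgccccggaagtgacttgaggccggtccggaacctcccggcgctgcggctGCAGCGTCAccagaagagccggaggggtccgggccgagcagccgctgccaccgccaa
Psmb5, chr14:54617946-54618245, minus strand: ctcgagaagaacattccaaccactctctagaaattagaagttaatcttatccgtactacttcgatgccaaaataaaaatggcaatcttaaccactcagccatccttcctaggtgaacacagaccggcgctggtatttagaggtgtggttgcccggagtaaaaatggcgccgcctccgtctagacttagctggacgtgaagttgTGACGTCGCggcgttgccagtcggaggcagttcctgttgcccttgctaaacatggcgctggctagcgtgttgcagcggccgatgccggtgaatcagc
Psmb8, chr17:34197945-34198244, plus strand: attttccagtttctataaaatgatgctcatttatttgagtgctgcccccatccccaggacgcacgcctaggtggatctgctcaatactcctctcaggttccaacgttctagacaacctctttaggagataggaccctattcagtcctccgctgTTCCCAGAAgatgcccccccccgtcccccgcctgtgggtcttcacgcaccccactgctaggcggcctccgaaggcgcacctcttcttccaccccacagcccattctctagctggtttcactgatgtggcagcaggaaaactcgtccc

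RefSeq windows were found for 36 of the 43 symbols (39 windows). The windows without an entry were those of Psma8, Psmb1, Psmb2, Psmb7, Psmc3, Psmd3 and Psmd7. CCGGAAG was found in 35.9% of the proteasome windows and in 8.86% of all 32851 windows, and GGGCGG in 59.0% and 35.7%. The antioxidant core TGACNNNGC was in 15.4% and 12.4%, in the windows of Psmb5, Psmb6, Psmc6, Psmd9, Psmd12 and Psme4. The interferon stimulated response element was in 10.3% and 3.44%, in Psmb3, Psmd4, Psmd9 and Psme1, and so in none of the 3 inducible subunits. TTCNNNGAA was in 5.13% and 8.30%, and CCAAT in 35.9% and 37.4%. These matches are descriptions of letters in a window and were not tested.

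In control livers the constitutive subunits were expressed at comparable levels per exon length, and the inducible subunits Psmb8 and Psmb9 were lower. Per kilobase of annotated exon, the mean CPM of the constitutive beta subunits ran from 10.2 (Psmb7) to 36.1 (Psmb4) and that of the ATPases from 11.6 (Psmc2) to 32.2 (Psmc1). Psmb8 stood at 3.23 CPM per kilobase against 32.3 for Psmb5, and Psmb9 at 2.26 against 31.8 for Psmb6. Psmb10 was the exception, at 13.0 against 10.2 for Psmb7. The alpha subunit Psma8, known from testis, was at 0.296 CPM per kilobase, against a median of 17.6 over the 8 alpha genes. The 3 assembly chaperones ranged from 3.25 (Psmd9) to 4.56 (Psmd10). The lengths are those of all annotated exons of a gene joined, so a gene with long rare transcripts reads low on this scale.

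In vehicle-treated mice most proteasome genes moved little, and more of them fell than rose. Of the 43 genes, 10 (23.3%) were called against control, 1 higher and 9 lower, while 29.8% of all 22581 genes tested were called, 15.0% higher and 14.8% lower. The median log2 fold change of the 43 was −0.090 and that of all genes was 0.012. Psmd8 rose, and Psma1, Psma3, Psmc2, Psmc6, Psmd4, Psmd5, Psmd11, Psme1 and Psme4 fell. Values of 4 genes lay wholly above and of 15 (34.9%) wholly below those of the control livers, where 17.5% and 17.3% of all genes did so. In hAAM-treated mice, which were compared with the same control livers, 6 of the 43 (14.0%) were called, against 20.7% of all genes (10.7% higher, 9.96% lower). Psmd8 was again higher, and Psmc2, Psmd4, Psmd7, Psmd11 and Psme4 were lower. The median was −0.098, against 0.016 for all genes, and 1 gene lay above and 9 (20.9%) below every control liver (14.3% and 14.2% of all genes). Without vehicle 3 and hAAM 4, 5 genes were called with vehicle (Psmd8 higher, Psmc2, Psmd11, Psme1 and Psme4 lower) and 4 with hAAMs (Psmd8 higher, Psmd4, Psmd11 and Psme4 lower). The share of all genes called in that smaller fit is not given here, so the lower counts are not a result about the proteasome genes.

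**Figure D1:**
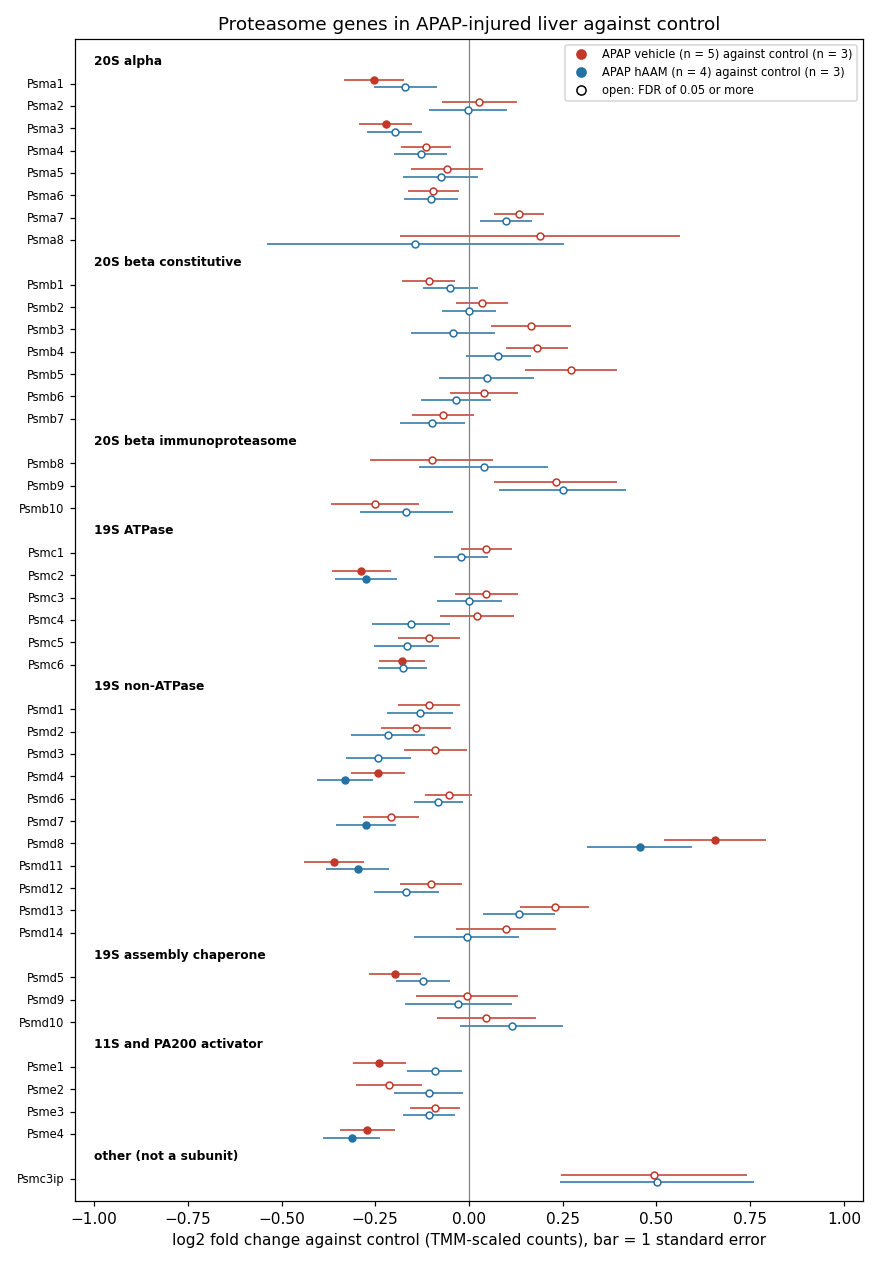
Log2 fold change against control (x axis) of the 43 proteasome genes by class, for vehicle-treated mice (red, n = 5) and hAAM-treated mice (blue, n = 4), with bars of 1 standard error and filled points at an FDR under 0.05. Most points lie between −0.36 and 0.27, and Psmd8 stands to the right at 0.66 and 0.46, as does Psmc3ip, with few counts and no call, at 0.49 and 0.50.

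The direction of the small changes depends on the scaling. TMM factors were 0.832 to 0.859 in control livers and 0.933 to 1.14 in APAP-injured livers. With library size alone the median of all genes was 0.36 with vehicle and 0.32 with hAAMs, those of the proteasome genes were 0.26 and 0.21, and the called genes, 17 and 7, were then all higher than control. The share of all genes called with library size alone is not given here, so 17 and 7 are not a result about the proteasome genes. Relative to the median of all genes the proteasome genes stood below it under both scalings. Psmd8 was higher than control under either scaling. The falls below are therefore changes relative to the bulk of genes.

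Among the 11 non-ATPase subunits of the 19S particle, 1 rose and 2 fell with vehicle (27.3% called, against 29.8% of all genes), and 1 rose and 3 fell with hAAMs (36.4%, against 20.7%). Psmd8, a subunit of the 19S lid (ENSMUSG00000030591, chromosome 7 from 29174188 to 29180701, minus strand, GRCm38), was at 78.2, 72.8 and 74.6 CPM in control, 117, 117, 98.8, 120.2 and 139.9 with vehicle and 120.3, 115, 80.9 and 96.0 with hAAMs. All 9 APAP-injured livers were above all 3 control livers, the highest being vehicle 5 and the lowest hAAM 3. Its log2 fold change was 0.66 ± 0.135 (FDR 0.00437) with vehicle, a 1.58-fold rise, and 0.46 ± 0.140 (FDR 0.0378) with hAAMs, a 1.37-fold rise. Without vehicle 3 and hAAM 4 the values were 0.72 (FDR 0.00381) and 0.49 (FDR 0.0360). With vehicle the call held in each of 12 fits that left out 1 liver. With hAAMs it held in 6 of 12, and the FDR reached 0.103 (edgeR) where it did not. The call was lost without any 1 of the control livers, vehicle 2, hAAM 1 or hAAM 2.

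Psmd11, a lid subunit that contacts both the ATPase ring and the core (ENSMUSG00000017428, chromosome 11 from 80428615 to 80473248, plus strand), was at 125.9, 104 and 121 CPM in control, 83.9, 89.3, 98.7, 91.7 and 92.9 with vehicle and 97.3, 89.1, 96.2 and 98.8 with hAAMs. No APAP-injured liver reached the lowest control liver, control 2. The log2 fold change was −0.36 ± 0.0801 (FDR 0.00643) with vehicle and −0.30 ± 0.0842 (FDR 0.0281) with hAAMs. The call held in 12 of 12 fits that left out 1 liver with vehicle and in 8 of 12 with hAAMs, where it was lost without control 1, control 3, hAAM 1 or hAAM 2. Without the near-identical livers the values were −0.38 (FDR 0.00942) and −0.31 (FDR 0.0420). Psmd4, a receptor for ubiquitin chains, was at 66.3, 59.5 and 64.2 CPM in control, 52.4, 52.8, 52.4, 51.2 and 58.8 with vehicle and 53.7, 49.9, 46.4 and 51.5 with hAAMs. Each APAP-injured liver was below the control livers, vehicle 5 by the smallest margin. Psmd4 fell to a log2 fold change of −0.24 ± 0.0710 (FDR 0.0233) with vehicle and −0.33 ± 0.0745 (FDR 0.0108) with hAAMs, and without vehicle 3 and hAAM 4 the values were −0.23 (FDR 0.0578) and −0.34 (FDR 0.0244).

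Psmd7, which pairs with the deubiquitinase Psmd14 in the lid, had log2 fold changes of −0.21 ± 0.0753 (FDR 0.0548) with vehicle and −0.27 ± 0.0789 (FDR 0.0294) with hAAMs, the latter at an FDR of 0.0582 (edgeR) without the near-identical livers. Psmd14 itself was at 0.099 and −0.0065, and neither comparison called it. Psmd13, another lid subunit, was above every control liver with vehicle (47.8 against 40.8 CPM), at 0.23 ± 0.0922 (FDR 0.0795). The scaffold subunits of the base, Psmd1 and Psmd2, were at −0.11 and −0.14 with vehicle and −0.13 and −0.21 with hAAMs. Psmd3, Psmd6 and Psmd12 of the lid lay between −0.24 and −0.054 in both comparisons, with no call.

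**Figure D2:**
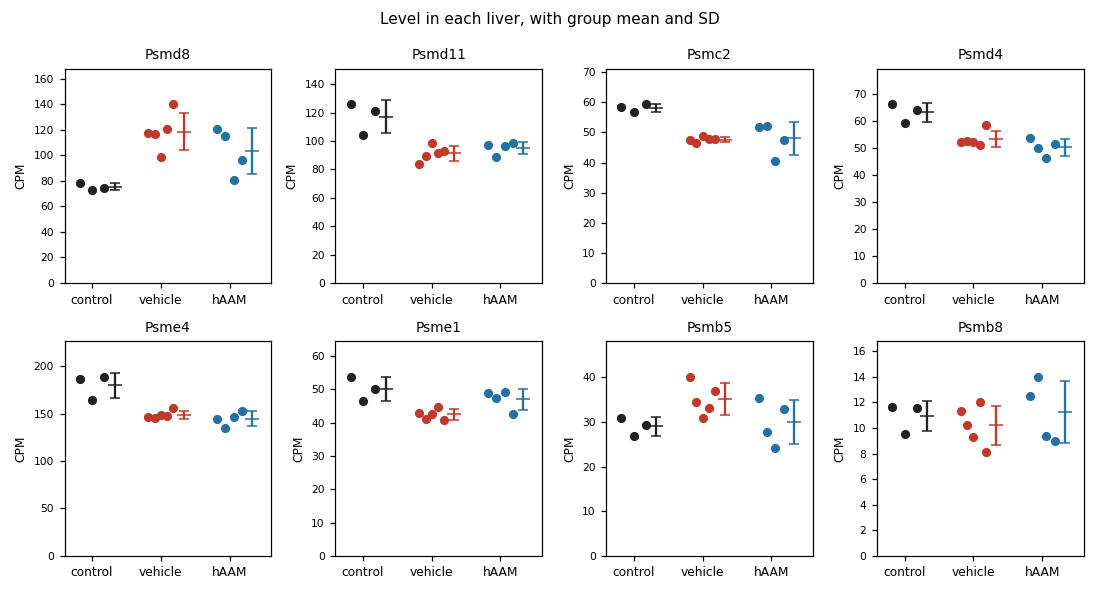
CPM (y axis, from 0) of 8 proteasome genes in each liver, with control in black, vehicle in red and hAAM in blue, and the group mean with its SD beside the points. Psmd8 is higher and Psmd11, Psmc2, Psmd4 and Psme4 are lower in each APAP-injured liver than in each control liver, Psme1 is so with vehicle alone, and the groups overlap for Psmb5 and Psmb8.

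Of the 6 ATPases, which form the ring that unfolds the substrate, 2 fell with vehicle (33.3%, against 29.8% of all genes called) and 1 with hAAMs (16.7%, against 20.7%). Psmc2 was at 58.4, 56.7 and 59.4 CPM in control, 47.5, 46.4, 48.7, 47.8 and 47.8 with vehicle and 51.9, 52.3, 40.5 and 47.5 with hAAMs. Both APAP groups lay below the control livers, and hAAM 3 was the lowest. Its log2 fold change was −0.29 ± 0.0790 (FDR 0.0177) with vehicle and −0.28 ± 0.0830 (FDR 0.0353) with hAAMs, and −0.29 (FDR 0.0351) and −0.27 (FDR 0.0767) without vehicle 3 and hAAM 4. Psmc6 was at 50.5, 49.2 and 49.8 CPM in control, 45.5, 42.3, 42.3, 45.5 and 44.6 with vehicle and 43.1, 46.7, 40.7 and 46.0 with hAAMs. The groups did not overlap with control either, and the change was −0.18 ± 0.0622 (FDR 0.0474) with vehicle and −0.18 ± 0.0653 (FDR 0.0742) with hAAMs. That call held in 2 of 12 fits with 1 liver left out and was lost without the near-identical livers (FDR 0.107). Psmc4, the ATPase with the largest p with vehicle, was at 58.3, 54.4 and 61.7 CPM in control, 59.5, 56.8, 55.1, 61.6 and 62.1 with vehicle and 60.3, 50.9, 42.8 and 55.1 with hAAMs. Its groups overlapped, with a log2 fold change of 0.021 and, with hAAMs, −0.15. Psmc1, Psmc3 and Psmc5 were between −0.11 and 0.046 with vehicle.

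In the gate-forming alpha ring, Psma1 and Psma3 fell with vehicle (25.0%, against 29.8% of all genes called) and none of the 8 genes was called with hAAMs. Psma1 was at 50.2, 46.6 and 49.2 CPM in control, 41.3, 38.2, 41.6, 42.8 and 40.2 with vehicle and 48.2, 44.8, 37.4 and 42.7 with hAAMs. With vehicle every liver was below control, while hAAM 1 lay within the control range. The log2 fold change was −0.25 ± 0.0790 (FDR 0.0303) with vehicle and −0.17 ± 0.0830 (FDR 0.167) with hAAMs, and the former was −0.25 (FDR 0.0554) without the near-identical livers. Psma3 was at 78.5, 70.2 and 70.1 CPM in control, 65.0, 58.5, 63.4, 61.8 and 64.0 with vehicle and 66.0, 66.5, 57.7 and 64.0 with hAAMs. Both groups were below the control livers, at −0.22 ± 0.0705 (FDR 0.0328) with vehicle and −0.20 ± 0.0740 (FDR 0.0768) with hAAMs, and without the near-identical livers the vehicle value had an FDR of 0.0662. Psma2, which changed least by its p with vehicle, was at 41.4, 35.04 and 33.6 CPM in control, 40.1, 35.8, 33.5, 38.7 and 38.8 with vehicle and 39.8, 39.7, 31.2 and 35.9 with hAAMs. The 3 groups overlapped, and the log2 fold changes were 0.027 and −0.0026. Psma4, Psma5 and Psma6 were at −0.11, −0.059 and −0.096 with vehicle, and Psma7 at 0.13.

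No constitutive beta subunit was called in either comparison. The median log2 fold change of these 7 genes was 0.039 with vehicle and −0.034 with hAAMs. Psmb4, which holds no active site, was at 73.2, 67.1 and 71.0 CPM in control, 87.6, 75.2, 76.9, 75.5 and 83.8 with vehicle and 82.3, 72.7, 66.6 and 75.8 with hAAMs. With vehicle every liver was above control, at 0.18 ± 0.0828 (FDR 0.119), and with hAAMs the groups overlapped at 0.078. Psmb3 was at 40.2, 36.3 and 39.7 CPM in control, 47.8, 41.8, 40.9, 41.0 and 45.7 with vehicle and 44.9, 35.5, 31.0 and 39.0 with hAAMs, also above control in every vehicle-treated liver, at 0.17 ± 0.107 (FDR 0.261), and at −0.042 with hAAMs. The chymotrypsin-like subunit Psmb5 was at 31.0, 26.8 and 29.4 CPM in control, 40.1, 34.5, 30.8, 33.1 and 36.9 with vehicle and 35.3, 27.7, 24.2 and 32.9 with hAAMs. Vehicle 3 lay within the control range, and the log2 fold changes were 0.27 ± 0.122 (FDR 0.111) with vehicle and 0.048 with hAAMs. The caspase-like Psmb6 was at 63.3, 56.5 and 58.9 CPM in control, 68.9, 60.7, 58.9, 54.8 and 62.9 with vehicle and 64.2, 56.9, 51.4 and 60.2 with hAAMs, and the trypsin-like Psmb7 at 39.5, 33.6 and 31.3 CPM in control, 34.7, 32.9, 33.3, 33.2 and 31.9 with vehicle and 35.1, 32.9, 29.0 and 33.1 with hAAMs. Their groups overlapped, and the log2 fold changes with vehicle were 0.039 and −0.069. Psmb2 was at 30.8, 29.1 and 30.7 CPM in control, 30.9, 30.1, 29.7, 32.5 and 31.6 with vehicle and 33.6, 28.9, 27.8 and 30.6 with hAAMs, with log2 fold changes of 0.035 and −0.00083, and Psmb1 was at −0.11 and −0.050.

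Under TMM scaling the 3 inducible subunits were not called in either comparison, and none of their levels per liver was separate from control in the upward direction. Psmb8 (ENSMUSG00000024338, chromosome 17 from 34197721 to 34201454, plus strand) was at 11.6, 9.56 and 11.6 CPM in control, 11.3, 10.2, 9.31, 12.05 and 8.14 with vehicle and 12.52, 14.0, 9.39 and 9.02 with hAAMs. Its highest levels were in hAAM 2 and hAAM 1 and its lowest in vehicle 5, and the groups overlapped, at −0.099 ± 0.164 (FDR 0.683) with vehicle and 0.039 ± 0.172 (FDR 0.896) with hAAMs. Psmb9 (ENSMUSG00000096727, chromosome 17 from 34181987 to 34187764, minus strand) was at 9.19, 6.01 and 9.64 CPM in control, 10.5, 9.37, 9.22, 11.7 and 7.75 with vehicle and 10.7, 10.3, 9.53 and 8.76 with hAAMs. Control 2 was the lowest liver and the other control livers lay within the range of both APAP groups, at 0.23 ± 0.163 (FDR 0.308) and 0.25 ± 0.171 (FDR 0.323). With library size alone Psmb9 was called higher in both comparisons, at 0.58 (FDR 0.0240) with vehicle and 0.56 (FDR 0.0429) with hAAMs. These values stood 0.23 and 0.24 above the median of all genes under that scaling, where Psmb8 and Psmb10 were not called. Psmb10 (ENSMUSG00000031897, chromosome 8 from 105935735 to 105938444, minus strand) was at 22.0, 23.2 and 21.4 CPM in control, 21.3, 20.1, 17.1, 19.6 and 15.1 with vehicle and 21.6, 22.0, 16.8 and 18.6 with hAAMs. Each vehicle-treated liver was below the control livers, at −0.25 ± 0.118 (FDR 0.126), and with hAAMs the change was −0.17 ± 0.124 (FDR 0.363). The exons of Psmb9 overlap those of Tap1 on the opposite strand by 212 bases, and those of Psmb8 overlap Gm20496 by 498 bases. The library kit keeps the strand, but whether the counting used it is not stated in the sources used here.

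Since each inducible subunit replaces a constitutive one, their ratio within a liver was also compared, which apart from the added constant does not depend on the scaling between livers. The log2 ratio of Psmb8 to Psmb5 (CPM + 0.5) was −1.37, −1.44 and −1.31 in control, −1.78, −1.71, −1.67, −1.42 and −2.11 with vehicle and −1.46, −0.96, −1.32 and −1.81 with hAAMs. With vehicle 4 of the 5 livers were below the control livers, vehicle 4 being within their range, and the difference was −0.37 (exact permutation test, two-sided, p = 0.0893, adjusted p = 0.362 over 9 comparisons). Between hAAM- and vehicle-treated mice the difference was 0.35 (exact permutation p = 0.135, adjusted p = 0.362), and between hAAM-treated and control mice −0.015. For Psmb9 to Psmb6 the ratio was −2.72, −3.13 and −2.55 in control, −2.66, −2.63, −2.61, −2.18 and −2.94 with vehicle and −2.53, −2.41, −2.37 and −2.71 with hAAMs, and for Psmb10 to Psmb7 it was −0.83, −0.52 and −0.54, −0.69, −0.69, −0.94, −0.75 and −1.05 and −0.69, −0.57, −0.77 and −0.81. The groups overlapped for both. None of the 9 differences passed the test: the lowest adjusted p was 0.362, where 5 against 3 livers allow an unadjusted p of 0.0179 at best, 4 against 3 allow 0.0286 and 5 against 4 allow 0.00794. Without vehicle 3 and hAAM 4 the lowest adjusted p was 0.300 (exact permutation test) and the ratio of Psmb8 to Psmb5 differed by 0.51 between hAAM- and vehicle-treated mice.

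**Figure D3:**
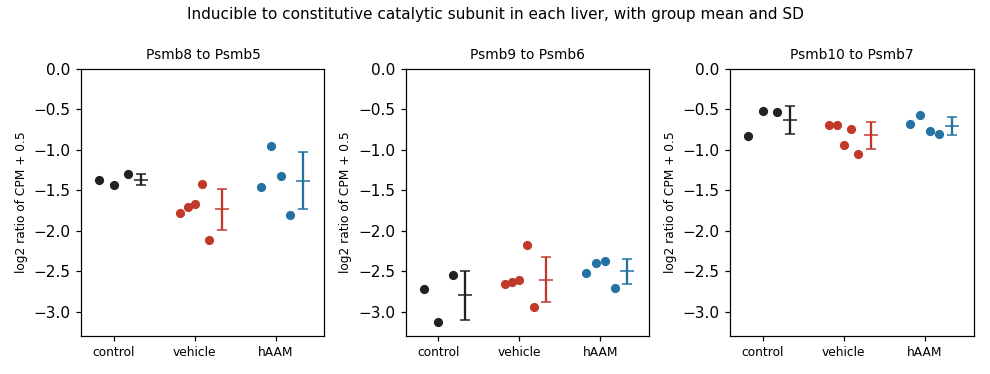
Log2 ratio of each inducible subunit to the constitutive subunit it replaces (y axis, CPM + 0.5) in each liver, with control in black, vehicle in red and hAAM in blue and the group mean with its SD. All ratios are below 0, and the groups overlap in each of the 3 panels. CPM were not divided by exon length here, so a ratio below 0 does not rank the subunits of a pair.

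Cd68, Ccr2, Itgam and Lyz2, 4 of the 8 macrophage and monocyte markers, rose in both comparisons, with log2 fold changes from 1.15 (Lyz2) to 2.62 (Ccr2) with vehicle. Under the same TMM scaling no inducible subunit was called in either comparison. The sums of the T and NK cell markers (0.833 to 2.77 CPM over all livers) and of the B cell markers (1.11 to 5.01 CPM) were low, and no gene of either list was called. Their part in the levels of Psmb8, Psmb9 and Psmb10 was not tested. Of the other marker lists, Marco of the 5 Kupffer cell markers rose in both comparisons, and Pecam1 of the 4 endothelial markers rose with vehicle. Of the 3 red cell markers, Hba-a1 and Hbb-bs rose and Alas2 fell with vehicle, and Alas2 fell with hAAMs. Their sum was 119 to 193 CPM in control, 161 to 1404 with vehicle, where vehicle 5 was the highest, and 165 to 519.5 with hAAMs. The part of these markers in the levels of the proteasome genes was not tested.

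Of the 4 activators, 2 fell with vehicle (14.8% of all genes fell) and 1 with hAAMs (9.96%). Psme4, the nuclear activator PA200 (ENSMUSG00000040850, chromosome 11 from 30771726 to 30880361, plus strand), was at 186, 165 and 189 CPM in control, 146, 146, 149, 148 and 156 with vehicle and 144, 135, 147 and 153 with hAAMs. All APAP-injured livers were below all control livers, at −0.27 ± 0.0733 (FDR 0.0161) with vehicle and −0.31 ± 0.0769 (FDR 0.0153) with hAAMs. Both calls were lost without control 1 or control 3 and kept in the other 10 of 12 fits. The call with hAAMs was also lost in a fit of the 2 groups alone (FDR 0.0691). Without the near-identical livers the values were −0.26 (FDR 0.0355) and −0.34 (FDR 0.0255). Psme1, a subunit of the interferon-inducible 11S activator (ENSMUSG00000022216, chromosome 14 from 55578123 to 55581529, plus strand), was at 53.7, 46.6 and 50.2 CPM in control, 43.0, 41.1, 42.7, 44.8 and 40.9 with vehicle and 48.9, 47.6, 49.3 and 42.5 with hAAMs. Vehicle-treated livers were all below control, whereas hAAM 1, hAAM 2 and hAAM 3 lay within the control range. Psme1 fell to −0.24 ± 0.0703 (FDR 0.0236) with vehicle and was at −0.091 ± 0.0739 (FDR 0.407) with hAAMs. The call held in 8 of 12 fits that left out 1 liver, lost without control 1, control 3, vehicle 2 or vehicle 5 (highest FDR 0.106), and it held without the near-identical livers (−0.23, FDR 0.0332). Its partner Psme2 was at 46.1, 42.0 and 42.1 CPM in control, 42.3, 38.9, 37.4, 35.9 and 32.7 with vehicle and 42.5, 43.7, 37.2 and 37.9 with hAAMs. The groups overlapped slightly with vehicle, at −0.21 ± 0.0877 (FDR 0.0842), and with hAAMs the log2 fold change was −0.11. Psme3, the nuclear 11S activator, was at 49.95, 51.0 and 52.2 CPM in control, 46.3, 48.0, 46.9, 49.6 and 49.0 with vehicle and 51.5, 47.7, 42.4 and 48.2 with hAAMs, at −0.090 and −0.11, with no call.

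The assembly chaperones of the 19S base showed no common direction. Psmd5 fell with vehicle, from 27.9 to 24.3 CPM, at −0.20 ± 0.0689 (FDR 0.0474), a call that held in 2 of 12 fits with 1 liver left out and was lost without the near-identical livers (FDR 0.103), and was at −0.12 ± 0.0723 (FDR 0.246) with hAAMs. Psmd9 was at 24.1, 23.03 and 23.5 CPM in control, 20.8, 24.8, 24.2, 20.3 and 27.2 with vehicle and 19.997, 19.1, 29.2 and 24.0 with hAAMs. Its groups overlapped, and the log2 fold changes were −0.0054 and −0.028. Psmd10 was at 0.046 and 0.11.

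Several calls rested on control 1 and control 3. Leaving out either one ended the calls of Psma1, Psma3, Psmc2, Psmc6, Psmd4, Psme1 and Psme4 with vehicle and those of Psmc2, Psmd7, Psmd8, Psmd11 and Psme4 with hAAMs. Psma1 kept its call in 7 of 12 fits that left out 1 liver, Psma3 in 8 and Psmd4 in 9 with vehicle. Psmc2 kept it in 10 with vehicle and 7 with hAAMs.

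A list of 11 genes, chosen with earlier results of these data known, covers NRF1, NRF2 (the transcription factors of the antioxidant response element) and the genes that control them. Of these, 7 fell and none rose with vehicle (63.6%, against 14.8% of all genes lower), and 6 fell and none rose with hAAMs (54.5%, against 9.96%), with medians of −0.28 and −0.31. Their summed level was 1555 to 1703 CPM in control, 1040.4 to 1160.2 with vehicle and 1035 to 1166 with hAAMs, without overlap. Nfe2l1, which encodes NRF1, was at 163, 163 and 164 CPM in control, 98.2, 110.1, 114, 99.95 and 129 with vehicle and 101, 109, 104 and 117 with hAAMs. Every APAP-injured liver was lower than every control liver, at −0.57 ± 0.0922 (FDR 0.00132) with vehicle and −0.60 ± 0.0972 (FDR 0.00239) with hAAMs. Ddi2, the protease that cleaves NRF1 into its active form, was at 369, 343 and 381 CPM in control, 192, 191, 218, 172 and 182 with vehicle and 163, 195, 234 and 221 with hAAMs. The groups lay far apart, at −0.93 ± 0.117 (FDR 0.000316) and −0.84 ± 0.124 (FDR 0.00147). Syvn1 and Sel1l, the ubiquitin ligase and its partner in the endoplasmic reticulum membrane that turn NRF1 over, fell as well. Syvn1 was at 218, 322 and 180.5 CPM in control, 63.7, 92.1, 112, 88.9 and 95.9 with vehicle and 99.9, 105, 73.6 and 110.4 with hAAMs, and Sel1l at 295, 378 and 300.1 CPM in control, 192, 223, 233, 216 and 226 with vehicle and 208, 212, 186 and 231 with hAAMs. Control 2 was the highest liver for both genes. Their log2 fold changes were −1.41 ± 0.202 (FDR 0.000721) and −0.57 ± 0.106 (FDR 0.00258) with vehicle, and −1.30 ± 0.215 (FDR 0.00268) and −0.63 ± 0.112 (FDR 0.00375) with hAAMs. Without vehicle 3 and hAAM 4 the values of Nfe2l1 were −0.57 and −0.64, those of Ddi2 −0.98 and −0.88, those of Syvn1 −1.49 and −1.37 and those of Sel1l −0.59 and −0.68, all called. With library size alone Nfe2l1 was at −0.22 with vehicle and −0.30 with hAAMs and Sel1l at −0.23 and −0.33, none of them called, while Ddi2 and Syvn1 were still called in both comparisons. Keap1 and Vcp fell in both comparisons and Ngly1 with vehicle alone, by values between −0.37 and −0.27.

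Of 14 assembly and associated factors tested, 1 rose and 3 fell with vehicle, and 2 fell with hAAMs. These shares, 28.6% and 14.3%, were no higher than those of all genes, 29.8% and 20.7%. Adrm1, a ubiquitin receptor of the 19S particle, was at 62.7 ± 4.47 CPM (SD, n = 3) in control, 51.9 ± 3.98 (SD, n = 5) with vehicle and 47.5 ± 2.75 (SD, n = 4) with hAAMs, with log2 fold changes of −0.27 ± 0.0792 (FDR 0.0219) and −0.40 ± 0.0830 (FDR 0.00743). Its call with vehicle was lost without control 1, control 3, vehicle 1 or vehicle 4 (highest FDR 0.0906), and without the near-identical livers the values were −0.30 (FDR 0.0190) and −0.43 (FDR 0.00953). Zfand2a, a stress-induced proteasome-associated protein, was at 10.6, 12.3 and 12.7 CPM in control, 21.7, 20.2, 16.8, 19.5 and 32.8 with vehicle and 17.9, 20.4, 11.4 and 17.1 with hAAMs. It was above control in each vehicle-treated liver, and highest in vehicle 5, where Psmd8 was also highest. Zfand2a rose by 0.90 ± 0.220 (FDR 0.0101) with vehicle and was at 0.49 ± 0.225 (FDR 0.144) with hAAMs, and the call with vehicle held in 12 of 12 fits and without the near-identical livers (0.99, FDR 0.00913). Ecpas, an adaptor of the 26S proteasome, was at −0.27 ± 0.0722 (FDR 0.0152) and −0.20 ± 0.0758 (FDR 0.0834), and the proteasome phosphatase Ublcp1 at −0.22 ± 0.0627 (FDR 0.0218) and −0.22 ± 0.0658 (FDR 0.0326), the latter at an FDR of 0.0704 without the near-identical livers.

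Among 13 genes of ubiquitin supply and shuttling, 4 fell in each comparison and Rps27a rose with hAAMs. The share called was 30.8% with vehicle, near the 29.8% of all genes, and 38.5% with hAAMs, against 20.7%. Those that fell were Ubqln1, Ubqln4 and Rad23b, which carry ubiquitinated proteins to the proteasome, and Nploc4, a cofactor of the segregase Vcp. Ubqln1 was at 161, 163 and 167 CPM in control, 108, 115, 122, 111 and 119 with vehicle and 127, 113, 121 and 125 with hAAMs, with no overlap with control. Its log2 fold change was −0.51 ± 0.0689 (FDR 0.000481) with vehicle and −0.43 ± 0.0725 (FDR 0.00289) with hAAMs. Nploc4, Ubqln4 and Rad23b were at −0.34, −0.39 and −0.36 with vehicle and −0.43, −0.45 and −0.32 with hAAMs (highest FDR 0.00991). All these calls held without the near-identical livers, where Ubqln1 was at −0.52 and −0.44. With library size alone Ubqln1 was at −0.17 and −0.13 and the other 3 lay between −0.15 and 0.0036, with no call. Rps27a, a ribosomal protein fused to ubiquitin, was at 0.26 ± 0.0747 (FDR 0.0302).

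Several genes that handle the peptides cut by the immunoproteasome fell. Of 12 interferon and antigen presentation genes, 6 fell and none rose with vehicle (14.8% of all genes fell), and 5 fell and none rose with hAAMs (41.7%, against 9.96%), with medians of −0.36 and −0.25. H2-K1, a class I molecule, was at 941, 704 and 804 CPM in control, 456, 423, 461, 399 and 349 with vehicle and 426, 404, 595 and 464 with hAAMs. All APAP-injured livers were below control, at −0.97 ± 0.146 (FDR 0.000919) with vehicle and −0.79 ± 0.155 (FDR 0.00568) with hAAMs. B2m, its light chain, was at 896, 733 and 785 CPM in control, 522, 474, 523, 473 and 378 with vehicle and 541, 510.2, 717 and 525 with hAAMs. The groups were separate, hAAM 3 coming closest to control, at −0.76 ± 0.141 (FDR 0.00252) and −0.49 ± 0.149 (FDR 0.0370), and without the near-identical livers the latter had an FDR of 0.0909. H2-D1 was at 529.9 ± 27.3 CPM (SD, n = 3) in control, 328 ± 19.9 (SD, n = 5) with vehicle and 361 ± 48.9 (SD, n = 4) with hAAMs, and Tapbp, which loads peptides, at 111 ± 1.62 CPM (SD, n = 3) in control, 76.4 ± 7.56 (SD, n = 5) with vehicle and 85.8 ± 4.75 (SD, n = 4) with hAAMs, and both were called in each comparison, also without the near-identical livers, where H2-K1 was at −0.998 and −0.78. With library size alone H2-K1 kept its call in both comparisons, H2-D1 and B2m theirs with vehicle alone, and Tapbp neither, at −0.19 and −0.066. H2-K1 and H2-D1 are similar in sequence, so reads may be exchanged between them. Irf1, a transcription factor of the interferon response, was at 189.5, 30.2 and 33.8 CPM in control, 23.6, 20.8, 19.2, 22.1 and 18.3 with vehicle and 14.6, 15.5, 15.7 and 20.1 with hAAMs, with control 1 far above the other livers, and Erap1 fell with vehicle alone (−0.45).

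**Figure D4:**
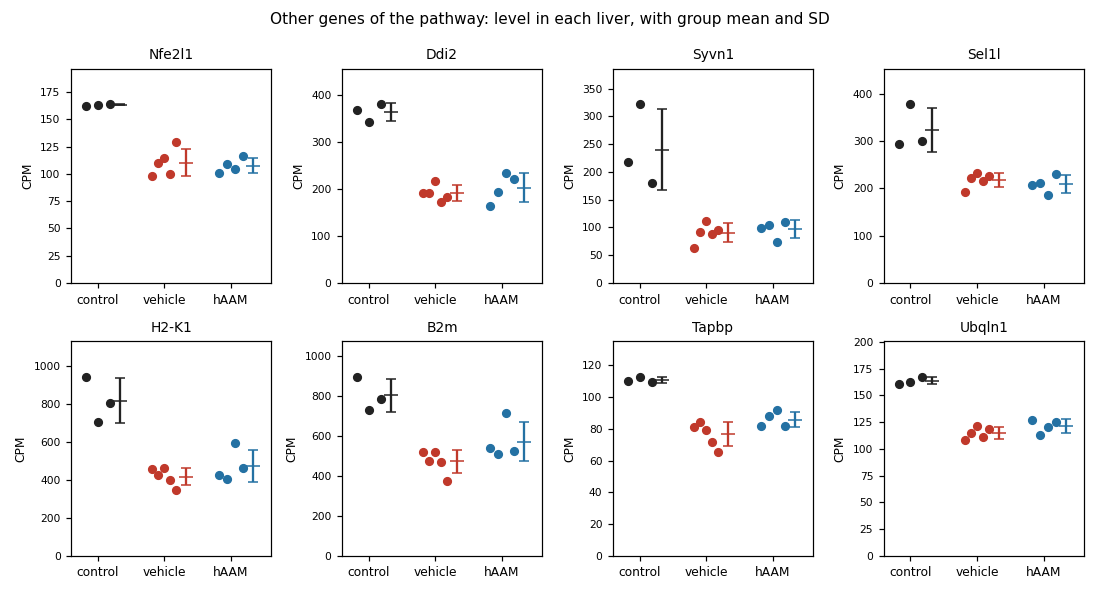
CPM (y axis, from 0) in each liver of Nfe2l1, which encodes NRF1, and of Ddi2, Syvn1 and Sel1l, which control it (top). The bottom row shows 3 antigen presentation genes and the shuttle factor Ubqln1. Control is in black, vehicle in red and hAAM in blue, and the group mean is given with its SD. In each of the 8 panels the APAP-injured livers lie below the control livers.

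Between hAAM- and vehicle-treated mice none of the 43 proteasome genes was called by edgeR or by DESeq2, as for all 22581 genes (0%) in edgeR. At an unadjusted p under 0.05 there was 1 proteasome gene, Psme1, and 5.02% of all genes. No proteasome gene was separate between the groups, against 0.709% of all genes higher and 0.691% lower. The smallest p-values were those of Psme1 at 0.15 ± 0.0649 (FDR 0.966), Psmb3 at −0.21 ± 0.0980 (FDR 0.966) and Psmb5 at −0.22 ± 0.112 (FDR 0.966). The 31 constitutive 26S subunits are the 20S and 19S subunits without Psma8. Their 95% intervals of the log2 difference ran from −0.47 (Psmb5) to 0.24 (Psma1). In this fit, which kept both near-identical livers, each lay within ±0.5. For Psmb8 the interval was −0.19 to 0.47, for Psmb9 −0.31 to 0.34 and for Psmb10 −0.15 to 0.32. The near-identical livers stood in opposite groups. Without them the log2 difference was −0.32 for Psmb5, 0.093 for Psma1 and 0.19 for Psmb8, against −0.22, 0.084 and 0.14 with them. Intervals without them are not given here, so whether each would stay within ±0.5 was not tested.

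The median log2 difference of the 43 genes between hAAM- and vehicle-treated mice was −0.029, with 14 genes above 0 and 29 below, against 0.0032 for all genes. In hAAM 3, 28 of the 31 constitutive 26S subunits were the lowest of all 9 APAP-injured livers, and their median deviation from the control mean was −0.28 on the log2 scale, while the other 8 livers had medians between −0.15 and 0.0069. Without hAAM 3 the median of the 43 genes was 0.021, with 27 above 0. With vehicle 3 and hAAM 4 left out it was −0.042, with 13 above 0. The assembly chaperone Psmd9 was highest in hAAM 3, at 29.2 CPM.

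**Figure D5:**
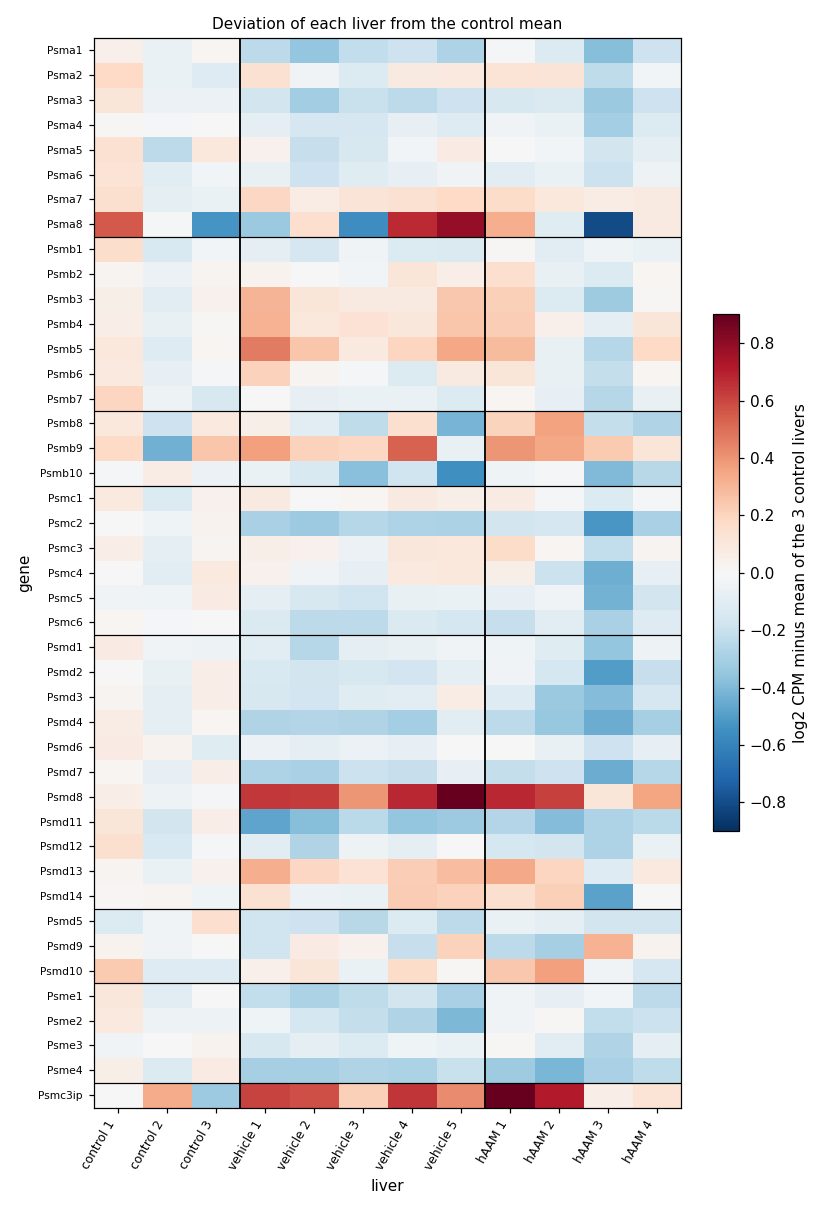
Log2 CPM minus the mean of the 3 control livers for each of the 43 proteasome genes (rows, by class) in each of the 12 livers (columns, with lines between groups), on a colour scale that ends at −0.9 and 0.9. The row of Psmd8 is red in the 9 APAP-injured livers, the column of hAAM 3 is blue in most rows, and Psma8 and Psmc3ip, with few counts, vary widely between livers.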

How the data were processed

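Per the submitters' notes and the paper's methods, RNA was extracted from frozen liver, depleted of ribosomal RNA and made into strand-keeping libraries, and the authors trimmed the reads with Cutadapt 4.6, aligned them to GRCm38 using STAR 2.7.1a and obtained gene counts through summarizeOverlaps. Deposited are raw counts for 24187 genes in 12 livers, as the authors left them, with no scaling. Symbols, exons and coordinates came from GENCODE M21 on GRCm38, which held 24092 of the genes, and promoters from RefSeq.

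Groups and replicate numbers came from the sample titles. The proteasome genes and the other gene lists were chosen with earlier results of these data known. Analyses used R 4.3.3 with edgeR 4.0.16 (filterByExpr by group, TMM, 1 quasi-likelihood fit of all 12 livers without robust estimation, 3 comparisons, two-sided, Benjamini-Hochberg over 22581 genes) and DESeq2 1.42.0 as an alternative. The biological coefficient of variation was 0.214, with a median of 0.104 over the proteasome genes. Ratios were taken on CPM + 0.5 and compared with two-sided exact permutation tests over livers (all splits enumerated in Python 3.11.15 with NumPy 2.4.6). A prior count of 2 was used for log2 CPM.

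Values in every liver are given for the inducible subunits and those they replace, the 4 activators, and, in the alpha, other beta, ATPase and non-ATPase classes (the last ranked together with the assembly chaperones), the 2 members with the smallest and the 1 with the largest p with vehicle. From each other list up to 4 genes with the smallest p were named, some with group means or fold changes alone. Psmd4, Psmd5, Psmd7, Psmd13, Irf1 and others outside that rule were named after their values were seen. Alternatives were DESeq2, RLE factors, library size alone, no filter, at least 10 counts in every liver, the 2 groups alone, a replicate block, each liver left out in turn, and both near-identical livers left out. Depth (47391650 to 74056505 counts) limits mainly Psma8 and Psmc3ip. The fits were tested on simulated counts.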

Additional observations from a re-analysis of the deposited data

Results flagged for a closer look

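Of 92 groups of 4 or 5 livers examined, 2 held a liver that stood apart from the rest of its group, and chance alone gives about 1 in 20. Both were vehicle 5, which was the highest of the 5 vehicle-treated livers. Psmd4, the ubiquitin receptor, was at 5.8786 log2 CPM there, and the other 4 livers lay between 5.68 and 5.72. Psmd3, a lid subunit, was at 6.2545 log2 CPM, and the other 4 lay between 6.02 and 6.08. The same liver had the highest Psmd8 (139.9 CPM) and the largest sum of red cell markers, 1404 CPM against 161 to 363 in the other vehicle-treated livers. Their part in these values was not tested.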

How the results depend on the processing

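No proteasome gene was called between hAAM- and vehicle-treated mice under any alternative. With vehicle, 17 genes were called with library size alone (all higher), 4 with the replicate block, 5 without the near-identical livers, and 2 (without control 3) to 12 (without hAAM 3) when 1 liver was left out, with 4 without control 1, 5 without vehicle 2 and 6 without vehicle 4. With hAAMs, 1 (Psmd4, FDR 0.0437) was called in a fit of the 2 groups alone, 3 with the replicate block, and 1 (without control 1 or control 3) to 6 when 1 liver was left out. In that fit of the 2 groups Psmd8, Psme4, Psmd7, Psmd11 and Psmc2 lost their calls (FDR 0.0684 to 0.1195). DESeq2 called 11 and 9, RLE scaling 11 and 6, and both other filters 8 and 6. The shares of all genes called under these alternatives are not given here. The counts therefore show how the calls depend on the setting and are not a result about the proteasome genes. The replicate numbers showed no pairing of the samples. Between livers of different groups, correlations of deviations ran from −0.458 to 0.385 with the same number and from −0.477 to 0.502 with different numbers. The highest was that of the near-identical livers. The cause of the shifts in the number of called genes was not tested.

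With library size alone, which moved the median of all genes by 0.36 and 0.32, some log2 fold changes turned positive. Genes called under neither scaling, such as Psmb8 at 0.2522 and Psmb10 at 0.0958 with vehicle, did so too and are not all listed. The values below are of genes tracked under every alternative and called under at least 1 of the 2 scalings. With vehicle these were Psme1 at 0.1086, Psme4 at 0.0762, Psma1 at 0.0947, Psma3 at 0.1253, Psmc2 at 0.0601, Psmc6 at 0.1697, Psmd4 at 0.1047, Psmd5 at 0.1507, Psmd9 at 0.3385, Adrm1 at 0.0709, Ecpas at 0.0751, Ublcp1 at 0.1307 and Nploc4 at 0.0036. With hAAMs they were Psmb2 at 0.3050, Psmc2 at 0.0376, Psmd7 at 0.0353, Psmd11 at 0.0051 and Ublcp1 at 0.0794. The 9 ratios of catalytic subunits stayed short of the threshold under every alternative. With the replicate block the difference of Psmb8 to Psmb5 with vehicle was −0.35. That block has too few pairs of livers to reach the threshold at all, and under the other alternatives a single ratio alone could not reach it. Whether the ratios changed is therefore not decided by these alternatives.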

Other observations

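Psmc3ip, which shares the symbol pattern but is no subunit, was at 0.642 ± 0.154 CPM (SD, n = 3) in control, 0.907 ± 0.111 (SD, n = 5) with vehicle and 0.913 ± 0.287 (SD, n = 4) with hAAMs, and it was not called. The summed level of all 43 proteasome genes was 2198 ± 107 CPM (SD, n = 3) in control, 2105 ± 61.2 (SD, n = 5) with vehicle and 2041 ± 147 (SD, n = 4) with hAAMs. The 4 activators summed to 304 to 336 CPM in control, 274.03 to 279.03 with vehicle and 274 to 287 with hAAMs, without overlap with control. Psme4, at a mean of 180 CPM in control, held the largest part of this sum. Taken singly, Psme1, Psme2 and Psme3 overlapped control with hAAMs, and Psme2 did so with vehicle. The constitutive beta subunits summed to 303 to 344, 324 to 365 and 287 to 354 CPM, and the 3 inducible subunits to 38.8 to 42.8, 31.0 to 43.4 and 35.7 to 46.3 CPM, with overlap in both classes.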
